A study of Homo sapiens with 2 samples.

Results

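The integrated stress response (ISR) genes downstream of ATF4 and CHOP were examined in cells labelled A549 that overexpressed NICD1, the intracellular domain that the NOTCH1 receptor releases when it is activated. The 10 genes were taken by their symbols, ATF4, DDIT3 (which encodes CHOP), CEBPB, TRIB3, CHAC1, SESN2, DDIT4, ASNS, PSAT1 and PHGDH, out of 19198 named genes in the deposited tables. A549 is an established human lung adenocarcinoma line, a form of non-small-cell lung cancer (NSCLC). The name is used here as the label gives it, because marker genes, described below, went against it. To find genes that NICD1 changes, polyA RNA was sequenced from 1 library of cells with the NICD1 overexpression genotype (A549-NICD1) and from 1 library of cells with the VECTOR control genotype (A549-Vector). According to the study's methods, NICD1 was carried by a pSin-EF2 lentiviral vector, stable lines were selected with antibiotics, and A549 cells were grown in DMEM with serum. No source used here says whether a line was 1 clone. With a single library per group there is no replicate check and no p-value, and an effect of NICD1 and other differences between the cultures cannot be told apart.

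In the ISR, kinases that sense endoplasmic reticulum (ER) stress, amino acid shortage, heme shortage or double-stranded RNA phosphorylate the translation factor eIF2, which lowers protein synthesis in general while the ATF4 mRNA is translated more. ATF4 is a basic leucine zipper (bZIP) transcription factor, and this control of its translation by short upstream reading frames is not read by a measurement of its mRNA. It turns on genes of amino acid synthesis and uptake and, under strong or lasting stress, DDIT3. CHOP in turn induces PPP1R15A, the phosphatase subunit that reverses the phosphorylation of eIF2. Many targets of ATF4 carry a C/EBP-ATF response element, a composite site for ATF4 and a C/EBP partner.

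The element was searched for as the letters TGATGNAA, on both strands, in RefSeq promoters of 300 bases (250 before and 50 after a start site, GRCh38.p14). The 10 genes have 16 such promoters, of which 2 held a match, 1 at CHAC1 and 1 at ASNS, against 3.62% of all 35116 promoters. Among 4 stress genes outside the set that were also searched, ATF3, HERPUD1, PPP1R15A and HSPA5, it was found at ATF3 and HERPUD1. All 4 are called higher below, and the lists they come from were chosen with earlier results of these data known. Their matches are therefore no test of a link between a site and a difference in level. Each stretch of 30 bases is shown 5′ to 3′ on the strand of its gene, with the matched letters in capitals, because these are the matches in the genes whose levels are compared below.
CHAC1: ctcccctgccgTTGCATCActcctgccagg
HERPUD1: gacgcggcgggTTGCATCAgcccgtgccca
ASNS: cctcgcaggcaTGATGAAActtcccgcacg
ATF3: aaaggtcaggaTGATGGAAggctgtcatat
The CHAC1 stretch lies at chr15:40953251-40953280 on the plus strand, with the match starting 209 bases before the RefSeq start site and inside an exon that GENCODE 29 assigns to CHAC1. The ASNS stretch lies at chr7:97872458-97872487 on the minus strand, with the match starting 68 bases before the start site, and it overlaps an exon of ASNS in GENCODE 29. The HERPUD1 stretch, at chr16:56931955-56931984 on the plus strand, begins its match 176 bases before the start site. The ATF3 stretch, at chr1:212565205-212565234 on the plus strand, begins its match 191 bases before the start site. CHAC1 and HERPUD1 hold the same 8 letters, TTGCATCA, which read as a match on the opposite strand. DDIT3 and the other 7 genes had no match in these windows. The RBPJ core TGGGAA, the site through which NICD acts, was found in 1 of the 16 promoters, at CEBPB just after a start site, and in 24.0% of all promoters. It was also found at ATF3 and at PPP1R15A among the genes outside the set. The cAMP response element TGACGTCA was found in 1.85% of all promoters, and the ER stress response element, CCAAT and CCACG with 9 bases of any kind between them, in 0.0769%. Neither was found at any of the 10 genes, whereas PPP1R15A held the first and HSPA5 the second, and no match at these genes overlapped another. A match is a run of letters in this window, not a measured binding site.

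The deposited values were treated as FPKM, reads per gene divided by gene length and by library depth, so that levels can be compared between genes. NOTCH1 went from 5.40 FPKM in the Vector library to 2865 FPKM in the NICD1 library, the direction its label gives. RFC4, a DNA replication factor subunit, went from 39.5 to 4075 FPKM, and its part in the results below was not tested. The depths, worked back from the values and not stated by the submitters, were 48602848 reads in A549-Vector and 48528434 reads in A549-NICD1. The marker genes went against the labelled cell line. Of 18 genes listed for A549, 9 were under 1 FPKM in both libraries, KRT7, KRT19 and SFTPC among them at 0, whereas 9 of 10 genes listed for HEK293, a human embryonic kidney line, were at 1 FPKM or more in both. The summed level of the A549 list was 208 FPKM in the Vector library and 351 FPKM in the NICD1 library, and that of the HEK293 list 329 and 289 FPKM. KRT8 and KRT18, keratins of simple epithelia, made up most of the A549 sum and were higher in A549-NICD1, KRT8 at 85.9 and 176 FPKM and KRT18 at 73.1 and 130 FPKM. The part of these markers in the results below was not tested. In bulk RNA, fewer cells of a type and less RNA per cell cannot be told apart.

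Fold changes are given in 2 forms. The log2 fold change was taken on FPKM plus 0.1 after scaling the libraries by a trimmed mean of their ratios, which understates the change of low genes. The scaled ratio has no added value and carries a 95% Clopper-Pearson interval from the whole reads behind the values, which covers counting error only. A gene was called higher or lower when it differed by at least 1.5-fold on the log2 scale. All 10 genes reached 1 FPKM in each library. DDIT3, CHAC1 and CEBPB were called higher in A549-NICD1 and none was called lower, against 2.3% of 12449 genes called higher and 2.7% called lower. The 10 genes were chosen with earlier results of these data known, so this comparison is not a test. DDIT3 and CHAC1 were also at least 2-fold higher, as were 0.827% of the genes, while 0.329% were at least 2-fold lower. The 2-fold call of DDIT3 ended without scaling, at a log2 fold change of 0.99, and with a pseudocount of 1 FPKM, at 0.92, and that of CHAC1 ended with that pseudocount, at 0.98. The median log2 fold change of the 10 genes was 0.29, and that of the 12449 genes was -0.00056.

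**Figure D1:**
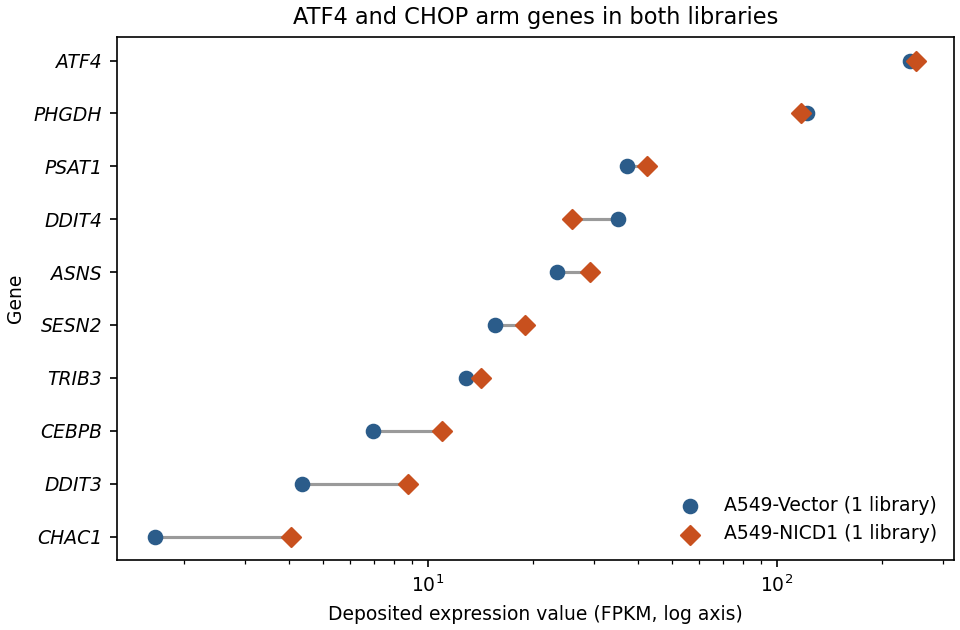
Deposited expression value in FPKM on a log axis for each of the 10 ISR genes, with a circle for the A549-Vector library and a diamond for the A549-NICD1 library. The lowest genes, CHAC1, DDIT3 and CEBPB, show the widest gaps, while ATF4, the highest, was at 241 and 250 FPKM.

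ATF4 and its bZIP partners CHOP and C/EBPβ are the transcription factors of the set. ATF4 (ENSG00000128272.14, chr22:39519695-39522685, plus strand) stood at 241 FPKM in the Vector library and 250 FPKM in the NICD1 library, which ranked it 175 and 172 among all genes by level. Its log2 fold change was 0.11, with a scaled ratio of 1.08 (interval 1.05 to 1.11), and 26.7% of the 12449 genes had a higher log2 fold change. The ATF4 mRNA was abundant in both libraries and differed little between them. Of the 100-base windows of its longest transcript, 5.13% also occur in the pseudogene ATF4P4, so a few of its reads cannot be assigned with certainty.

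DDIT3, whose product CHOP is best known for promoting cell death under unresolved ER stress, was at 4.36 FPKM in the Vector library and 8.75 FPKM in the NICD1 library. Its log2 fold change was 1.05 and its scaled ratio 2.09 (interval 1.77 to 2.48), from at least 214 and 429 reads. It ranked 95 of 12449 genes from the highest log2 fold change, and among the 2123 genes within 0.5 log2 units of its mean level, 6 had a higher one. DDIT3 (ENSG00000175197.12, chr12:57516588-57521737, minus strand) shares 27.2% of its exon bases with MARS, the methionyl-tRNA synthetase gene on the opposite strand, 4.44% with MBD6 there and 8.03% with AC022506.1 on its own strand. The library kit named in the labels does not mark strand in its basic form, whereas the study describes its sequencing as strand-specific, so it is not settled whether reads of this pair were told apart. MARS itself was at 73.1 and 80.5 FPKM, a log2 fold change of 0.20.

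CEBPB, a bZIP factor that pairs with ATF4 and CHOP and also serves inflammatory signaling, was at 6.99 FPKM in the Vector library and 10.96 FPKM in the NICD1 library. Its log2 fold change was 0.70 and its scaled ratio 1.64, with an interval of 1.49 to 1.80 whose lower end lies just under the 1.5-fold line. It ranked 200 of 12449 genes. CEBPB (ENSG00000172216.5, chr20:50190734-50192689, plus strand) shares 11.8% of its exon bases with the antisense gene CEBPB-AS1.

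**Figure D2:**
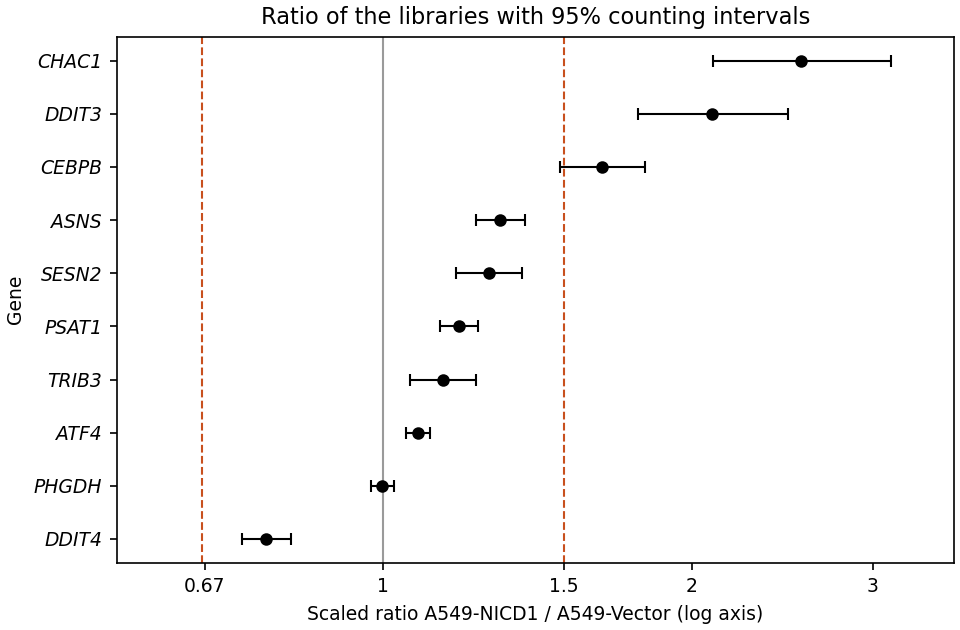
Scaled ratio of A549-NICD1 over A549-Vector for each of the 10 genes on a log axis, with 95% counting intervals as bars. The solid line marks a ratio of 1 and the dashed lines a difference of 1.5-fold. CHAC1 and DDIT3 lie wholly above the upper dashed line, CEBPB straddles it, and DDIT4 is the one gene whose interval lies wholly under 1.

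CHAC1, TRIB3, SESN2 and DDIT4 are stress effectors that act beyond transcription. CHAC1, an enzyme that breaks down glutathione and a target of the ATF4 and CHOP axis, was the lowest of the 10 genes, at 1.65 FPKM in the Vector library and 4.05 FPKM in the NICD1 library. It had the highest log2 fold change of the set, 1.30, with a scaled ratio of 2.56 (interval 2.10 to 3.13) from at least 143 and 350 reads. It ranked 53 of 12449 genes, and 7 of the 1290 genes near its level had a higher value. CHAC1 (ENSG00000128965.12) lies at chr15:40952962-40956519 on the plus strand, and none of its transcript windows occurs in another gene.

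TRIB3, a pseudokinase induced by ATF4 and CHOP that restrains both ATF4 and AKT, was not called. It was at 12.9 FPKM in the Vector library and 14.2 FPKM in the NICD1 library, a log2 fold change of 0.19 and a scaled ratio of 1.15 (interval 1.06 to 1.23). SESN2, which encodes sestrin 2, a leucine-binding inhibitor of mTORC1, was at 15.6 and 19.0 FPKM, with a log2 fold change of 0.34 and a scaled ratio of 1.27 (interval 1.18 to 1.36). TRIB3 (ENSG00000101255.10) lies at chr20:362835-397559 and SESN2 (ENSG00000130766.4) at chr1:28259527-28282491, both on the plus strand. Both genes were under the 1.5-fold line, and 15.1% and 6.15% of genes had a higher log2 fold change than TRIB3 and SESN2.

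DDIT4, which encodes REDD1, an inhibitor of mTORC1 that also responds to hypoxia and glucocorticoids, lay in the opposite direction. It was at 35.1 FPKM in the Vector library and 25.9 FPKM in the NICD1 library, with a log2 fold change of -0.38 and a scaled ratio of 0.770 (interval 0.728 to 0.814). It was not called lower, although its interval lay under 1, and among the 2152 genes near its level 35 had a lower log2 fold change. In GENCODE 29, 41.2% of the exon bases of DDIT4 (ENSG00000168209.4, chr10:72273920-72276036, plus strand) overlap the antisense gene DDIT4-AS1.

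ASNS, PSAT1 and PHGDH represent amino acid synthesis, the classical output of ATF4. ASNS, which makes asparagine, was at 23.4 FPKM in the Vector library and 29.2 FPKM in the NICD1 library, a log2 fold change of 0.38 and a scaled ratio of 1.30 (interval 1.23 to 1.37). PSAT1, the transaminase of serine synthesis, was at 37.3 and 42.4 FPKM, a log2 fold change of 0.25 and a scaled ratio of 1.19 (interval 1.14 to 1.24). PHGDH, the enzyme that commits glycolytic carbon to serine, was at 122 and 117 FPKM, a log2 fold change of -0.0023 and a scaled ratio of 0.998 (interval 0.973 to 1.02). ASNS (ENSG00000070669.16) lies at chr7:97852118-97872542 on the minus strand, PSAT1 (ENSG00000135069.13) at chr9:78297143-78330093 on the plus strand and PHGDH (ENSG00000092621.12) at chr1:119648411-119744226 on the plus strand. None of these reached 1.5-fold, and for PHGDH the counting interval held 1. Windows of the longest ASNS transcript were shared with the readthrough gene AC079781.5 for 78.3% of their number, so its reads may include that transcript.

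**Figure D3:**
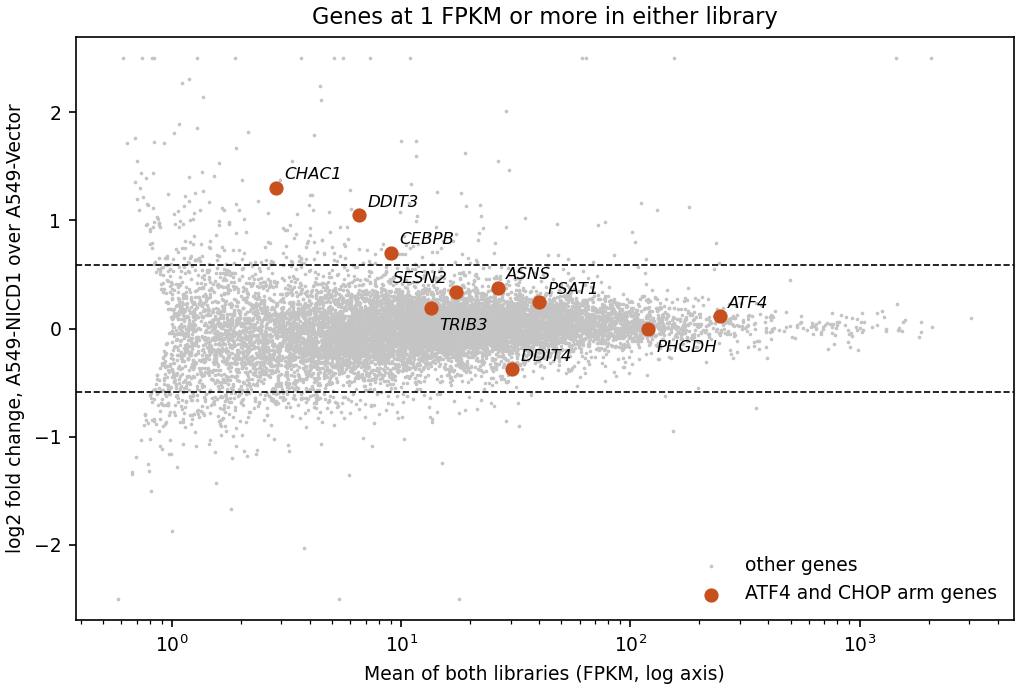
Log2 fold change of A549-NICD1 over A549-Vector against the mean of both libraries in FPKM, on a log axis, for the genes at 1 FPKM or more in either library, with values beyond 2.5 or -2.5 drawn at those limits. The dashed lines mark 1.5-fold. CHAC1, DDIT3 and CEBPB lie above the upper line at low to middle levels, and the other 7 ISR genes lie between the lines.

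The upstream parts of the response were compared next. Of 14 genes for the eIF2 kinases, the eIF2 and eIF2B subunits and the eIF2 phosphatase regulators, 1 was called higher and none lower. Among all genes, 2.3% were called higher and 2.7% lower. The median log2 fold change of the 14 was 0.07. The gene called higher was PPP1R15A (GADD34), the CHOP target that restores translation, at 8.61 FPKM in the Vector library and 20.0 FPKM in the NICD1 library, a log2 fold change of 1.27 (scaled ratio 2.42, interval 2.25 to 2.61). PPP1R15B, its constitutive counterpart, was at 25.1 and 24.4 FPKM. Among the kinases, EIF2AK3 (PERK), the sensor of ER stress, was at 4.94 and 5.79 FPKM, a log2 fold change of 0.28, and EIF2AK4 (GCN2), the sensor of amino acid shortage, was at 24.2 and 22.9 FPKM. EIF2AK1 (HRI), the heme sensor, was the lowest of the list, at 49.3 and 39.7 FPKM, a log2 fold change of -0.25.

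Of 13 genes listed as bZIP partners of ATF4 and CHOP, which include the chromatin protein NUPR1, 11 were at 1 FPKM or more in a library. Of these 11, 3 were called higher and none lower, against 2.3% and 2.7% of all genes, with a median of 0.27. ATF3, a stress-induced factor downstream of ATF4, was the highest, at 11.7 FPKM in the Vector library and 45.4 FPKM in the NICD1 library, a log2 fold change of 2.01 (scaled ratio 4.06, interval 3.81 to 4.33). JUN, an AP-1 subunit, was at 50.2 and 93.5 FPKM, a log2 fold change of 0.96. CEBPD, a close relative of CEBPB, was at 2.89 and 4.38 FPKM, a log2 fold change of 0.64. It fell under 1.5-fold when the deposited FPKM were not scaled. CEBPG and ATF5, further ATF4 targets, had log2 fold changes of 0.32 and 0.34, and ATF2 was the lowest, at -0.07.

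The metabolic targets of ATF4 are read against the 2.3% of all genes called higher and 2.7% called lower. None of 20 cytosolic tRNA synthetase genes was called, and the median was 0.16, with WARS the highest at 0.34 and QARS the lowest at -0.23. Of these genes 19 lay above 0 in log2 fold change, against 6206 of all 12449 genes. Leaving out the scaling, which moved the median of all genes by -0.06, gave a list median of 0.10. EPRS, IARS, LARS and VARS, at 0.02 to 0.05 with scaling, were nearer 0 than that shift. None of the 11 serine, one-carbon and proline synthesis genes counted was called, and their median was 0.05, which became -0.01 without scaling. In that list MTHFD1L, of mitochondrial folate metabolism, was the highest at 0.24, and PSPH, the last step of serine synthesis, was the lowest at -0.14. Of 10 amino acid transporter genes, 1 was called higher and 1 lower, with a median of 0.18. SLC3A2, the heavy chain shared by several transporters, was at 66.7 FPKM in the Vector library and 103 FPKM in the NICD1 library, a log2 fold change of 0.68. Its light chain partner SLC7A5 was at 42.2 and 59.3 FPKM, a log2 fold change of 0.55, just under the threshold, whereas the light chain SLC7A11, of the cystine transporter, was at 6.24 and 6.25 FPKM. The glycine transporter gene SLC6A9 was lower, at 3.74 and 2.34 FPKM, a log2 fold change of -0.60.

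Downstream of CHOP, none of 5 death and redox genes was called, and their median was -0.10. Among all genes, 2.3% were called higher and 2.7% lower. ERO1A, the ER oxidase, was the highest, at 28.6 FPKM in the Vector library and 30.9 FPKM in the NICD1 library, a log2 fold change of 0.18. TNFRSF10B, the death receptor DR5, was at 24.2 and 22.6 FPKM, and BCL2L11, which encodes the proapoptotic protein BIM, was the lowest, at 22.5 and 16.7 FPKM, a log2 fold change of -0.37. Of 15 secreted and other ATF4 target genes, 10 were counted and none was called, with a median of 0.02 that became -0.04 without scaling and -0.01 with scaling by summed FPKM. VEGFA was the highest of these, at 0.42, and VLDLR the lowest, at -0.47.

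The ER chaperone genes and other targets of ATF6 and XBP1, the remaining arms of the unfolded protein response, were set beside these lists. Whether the list separates these arms from ATF4 was not tested. Of its genes only HERPUD1 and HSPA5 were searched for motifs. HERPUD1 held a match to the C/EBP-ATF response element and HSPA5 a match to the ER stress response element. Of 20 such genes, 6 were called higher and none lower, against 2.3% and 2.7% of all genes, and the median was 0.54. Without scaling 3 were called higher, against 1.91% of all genes. With scaling by summed FPKM 4 were called higher, against 2.10%. The highest was HERPUD1, of ER-associated degradation, at 16.1 FPKM in the Vector library and 42.9 FPKM in the NICD1 library, a log2 fold change of 1.47. HSPA5 (BiP), the main ER chaperone, was at 116 and 243 FPKM, a log2 fold change of 1.12. MANF, HYOU1, XBP1 and HSP90B1 were between 0.60 and 0.68, and EDEM1 was the lowest, at 0.18.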

How the data were processed

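The authors deposited, for each of the 2 polyA RNA libraries (A549-NICD1 and A549-Vector), 1 value per gene, treated here as FPKM from the values. The submitters' processing notes name hg38, Bowtie2 and HTSeq, and versions, annotation and unit were not given in the sources used here. Of 19225 rows, 27 with numbers for names were left out. The design's Wald test, as used in the study, needs counts and replicates and was not run.

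The libraries were brought to 1 scale with a trimmed mean of log2 ratios, taken over genes at 1 FPKM or more in both (30% of ratios and 5% of levels trimmed at each end), giving a factor of 0.959 for A549-NICD1. Counts of genes used those at 1 FPKM or more in either library. Because length cancels in the ratio of a gene's 2 values, whole reads could be worked back from the files alone. The commonest ratio gave the relative depth, and fractions matching the other ratios within 4e-09 gave the depth, the largest at which most gene lengths were whole. At that depth 78.6% of the lengths used were whole. Each gene was then given the shortest length from 100 to 30000 bases at which both of its values were whole reads, within 6e-10 of the reads plus 1e-06. This gave reads for 16179 of the 16181 genes with values above 0 in each library. They are the smallest in that range, so true reads may be a whole multiple with narrower intervals. Intervals are 95% Clopper-Pearson and hold counting error alone, as the reads carried no molecular identifiers and 1 molecule can give several. Recovery and scaling were tried on simulated reads whose only noise was counting error. The intervals were computed there from the simulated reads, not from the recovered ones.

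Positions came from GENCODE 29 (GRCh38, the build hg38 names) and promoters from RefSeq GRCh38.p14. Exon sharing counted merged exon bases, and transcript sharing used windows of 100 bases every 50 bases. All members, the highest and lowest gene of each list, and genes past 1.5-fold were named, with some others chosen after their values were seen. The members and lists were chosen with earlier results of these data known. Alternatives covered scaling, pseudocount, filter and fold threshold. Python 3.11.15, numpy 2.4.6, pandas 2.3.3, scipy 1.17.1 and matplotlib 3.10.9 were used.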

Additional observations from a re-analysis of the deposited data

How the results depend on the processing

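DDIT3, CHAC1 and CEBPB stayed at least 1.5-fold higher under each scaling and pseudocount tried, and no member was called lower in any setting. A threshold of 2-fold, or a filter at 5 FPKM, which leaves out CHAC1, gave 2 members higher instead of 3. Over all scalings and pseudocounts the log2 fold change was 0.98 to 1.35 for CHAC1, 0.92 to 1.07 for DDIT3, 0.64 to 0.71 for CEBPB and 0.05 to 0.11 for ATF4, and no member changed sign. The median of the members was 0.23 without scaling, which moved the median of all genes by -0.06. The share of all genes called higher was 5.59% with no filter and 1.28% with the filter at 5 FPKM, against 2.3%, and with a pseudocount of 1 FPKM it was 1.41%. The share called lower was 0.852% with that pseudocount and 1.02% with the filter at 5 FPKM, against 2.7%. The scalings of the other lists were tried after the data were seen. No paired analysis was possible because each group had 1 library.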

Other observations

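Paralogs of the ISR effectors were compared between the libraries, and 2 of 5 were called lower in A549-NICD1, against 2.7% of all genes. None was called higher, against 2.3% of all genes. SESN3, a sestrin that responds to FOXO factors, was at 17.3 FPKM in the Vector library and 9.37 FPKM in the NICD1 library, a log2 fold change of -0.82 (scaled ratio 0.564, interval 0.543 to 0.586). SESN1, a sestrin that responds to p53, was at 13.2 and 11.6 FPKM. SESN2, the sestrin in the ISR set, was at 15.6 and 19.0 FPKM and was not called. What regulated these sestrins here was not tested. DDIT4L (REDD2) was lower, at 1.56 and 0.665 FPKM, a log2 fold change of -1.07 (scaled ratio 0.444, interval 0.340 to 0.575). TRIB1 was the highest of the paralogs, at 14.5 and 19.6 FPKM, a log2 fold change of 0.49. Without replicates these differences have no test.

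Mitochondrial stress genes, which include the relay to HRI by OMA1 and DELE1, showed no called gene among 7. Among all genes, 2.3% were called higher and 2.7% lower. The median log2 fold change of the 7 was 0.02, which became -0.04 without scaling and -0.01 with scaling by summed FPKM. HSPA9 was the highest at 0.14 and LONP1 the lowest at -0.13. Several stress genes lay under 1 FPKM and were not counted. Among them ALDH1L2 was at 0.898 FPKM in the Vector library and 0.973 FPKM in the NICD1 library, a scaled ratio of 1.13. ADM2 was at 0.163 and 0.169 FPKM, a scaled ratio of 1.08, and the counting intervals of both genes held 1. CDSN had at least 1 read in each library, and CEBPE was listed at 0 and 0.0133 FPKM. NUPR1, a stress-induced chromatin protein, had at least 1 read in A549-Vector and at least 26 in A549-NICD1, a scaled ratio of 27.2 with a counting interval of 4.46 to 1114. INHBE, a liver activin subunit and known ISR target, had at least 33 and 63 reads, a scaled ratio of 1.99 (interval 1.29 to 3.14). GDF15, a circulating stress cytokine, was at 0.0588 and 0.324 FPKM, from at least 4 and 22 reads. Its scaled ratio was 5.75 (interval 1.95 to 22.9). FGF21 was listed at 0 in A549-Vector and at 0.0314 FPKM in A549-NICD1.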
